A study of Homo sapiens with 6 samples.

Results

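Hypoxia response genes are genes whose transcripts rise when oxygen falls, and 7 of them were followed here in H1299 lung carcinoma cells through 8 microarray probes, of 48803 probes on each array. The probes were chosen by identifier: CA9 (ILMN_1725139), NDRG1 (ILMN_1809931), ADM (ILMN_1708934), BNIP3 (ILMN_1724658), ANGPTL4 (ILMN_1707727), HK2 (ILMN_1723486) and VEGFA with 2 probes (ILMN_1803882 and ILMN_2375879). Their gene names came with that choice, because the deposited table gives none, and the names could not be checked against the data. All 8 probes passed the filter on dim probes, which kept 28035. A probe was kept where at least 2 of the 6 arrays gave it a value above the median of that array. The 8 were chosen with earlier results of these data known. Counts among them beside shares of all kept probes are therefore no independent evidence about this list.

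The study measured mRNA on 6 Illumina HT-12 arrays of stable H1299 derivatives in exponential growth. H1299 is an established human non-small cell lung cancer line, labelled lung adenocarcinoma. One set held 2 separate clones stably transfected with Lin-28B and 1 line called their control, and the other set held 2 clones stably transfected with Ago2 and 1 line called theirs. LIN28B is an RNA-binding protein that keeps let-7 precursors from being processed, and AGO2 is the Argonaute protein that binds microRNAs and cleaves or silences their targets. The labels do not state what the control lines carry, which promoter drives the transfected genes, or the oxygen and cell density at harvest, and no array was labelled as hypoxic. Each transfected line was 1 clone and each control 1 array, so nothing measures the spread of a control. The levels of LIN28B and AGO2, the markers of lung and other cell types and the remaining genes of the hypoxia pathway were not analysed here, since only the 8 probes carry gene names.

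In well oxygenated cells the alpha subunits of the hypoxia-inducible factors (HIF) are hydroxylated by prolyl hydroxylases, bound by the VHL ubiquitin ligase and degraded. When oxygen falls they escape this, pair with ARNT and bind hypoxia response elements, whose core reads ACGTG or GCGTG, beside genes for glycolysis, pH control, blood vessel growth and mitophagy. Carcinoma cells in culture can raise the same genes when they are crowded or short of glucose, and most of these genes also answer to other regulators.

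The promoters of 4 of the genes are shown because their probes stand for the 4 patterns seen on the arrays: BNIP3 differed between sister clones, ANGPTL4 stood high on 1 control array, HK2 was lower in all clones than in both controls, and CA9 stayed near the array medians. Each line gives the 250 bases before the RefSeq start of the gene, for HK2 the first of its 2 starts (build GRCh38.p14), 5′ to 3′ on the strand of the gene, with every ACGTG or GCGTG core on either strand in capitals.
BNIP3 promoter, chr10:131981924-131982173, minus strand: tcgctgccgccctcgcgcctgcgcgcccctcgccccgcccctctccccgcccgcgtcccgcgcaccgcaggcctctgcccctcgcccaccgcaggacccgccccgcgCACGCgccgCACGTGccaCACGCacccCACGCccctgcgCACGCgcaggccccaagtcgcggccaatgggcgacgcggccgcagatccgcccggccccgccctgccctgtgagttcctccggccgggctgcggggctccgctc
ANGPTL4 promoter, chr19:8363905-8364154, plus strand: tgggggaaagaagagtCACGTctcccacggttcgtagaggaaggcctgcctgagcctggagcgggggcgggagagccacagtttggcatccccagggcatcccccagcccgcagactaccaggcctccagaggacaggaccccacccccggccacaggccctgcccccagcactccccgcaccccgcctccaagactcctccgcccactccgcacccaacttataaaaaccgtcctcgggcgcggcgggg
HK2 promoter, chr2:74833877-74834126, plus strand: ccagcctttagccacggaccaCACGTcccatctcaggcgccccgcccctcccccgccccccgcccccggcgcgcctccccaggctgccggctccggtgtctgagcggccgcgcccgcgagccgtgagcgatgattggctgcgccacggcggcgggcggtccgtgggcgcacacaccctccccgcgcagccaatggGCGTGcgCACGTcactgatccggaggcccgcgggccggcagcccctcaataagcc
CA9 promoter, chr9:35673678-35673927, plus strand: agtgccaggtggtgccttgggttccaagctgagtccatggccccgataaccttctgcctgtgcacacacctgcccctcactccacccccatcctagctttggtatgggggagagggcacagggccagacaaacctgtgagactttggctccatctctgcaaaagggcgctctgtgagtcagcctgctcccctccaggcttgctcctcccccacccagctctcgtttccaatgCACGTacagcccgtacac

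The BNIP3 promoter held 6 matches counted on both strands, in which the palindrome CACGTG was counted once for each strand, and 4 of them were GCGTG. HK2 held 3 matches, 2 of ACGTG and 1 of GCGTG, in a stretch that in part lies within the divergent transcript HK2-DT. HK2 has a second RefSeq start, and the window before it, inside the gene and not printed here, held 6 matches, from 2 CACGTG palindromes and 2 GCGTG cores. CA9 and ANGPTL4 each held 1 ACGTG, read on the opposite strand as CACGT. In CA9 it ended 14 bases before the RefSeq start and in ANGPTL4 it ended 230 bases before it. The ADM promoter held 1 GCGTG in the same window. Such short cores are common: of 35116 promoter windows of 250 bases in the RefSeq table, 18.5% held ACGTG on either strand, 32.2% held GCGTG and 43.2% held at least 1 of them. A match is a string of letters and no evidence of binding. For 5 of the 7 genes the table held a promoter, and VEGFA and NDRG1 are named only.

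Across the 6 arrays the 8 probes did not move as one group. ANGPTL4, BNIP3, CA9 and both VEGFA probes were highest on the Lin28B control array, HK2 and NDRG1 on the Ago2 control array, and ADM in Lin28B clone 2. On the normalized scale the Lin28B control was the highest array for 5 of the 8 and for 24.0% of all kept probes, and the Ago2 control for 2 of the 8 and 23.7%. In limma, which borrows information on the spread from all kept probes, 1 of the 8 probes passed an adjusted p of 0.05 between the Lin28B clones and their control, where 1.65% of all kept probes did. None passed between the Ago2 clones and their control, where 0% of all kept probes passed and 15.1% had an unadjusted p under 0.05. Against the Lin28B control, 7 of the 8 probes lay lower in the mean of the clones, with a median log2 change of -0.61, against a median of 0.016 and 47.2% lower over all kept probes. Against the Ago2 control, 6 of 8 lay lower, with a median of -0.13, against -0.0081 and 51.6% over all kept probes. Both summaries turned on the control array: with the controls exchanged, 4 of the 8 lay lower in the Lin28B clones, with a median of 0.014, and 8 of 8 in the Ago2 clones, with a median of -1.04. With arrays shifted to a common median, 4 of the 8 lay lower in the Ago2 clones. Shares over all kept probes were not analysed for these alternatives, so these counts have no background beside them. Log2 changes and fold changes are on the quantile-normalized log2(intensity + 32) scale, which understates the changes of dim probes. Intensities are as deposited, so a fold change can differ from the ratio of the intensities beside it. Medians of the 6 arrays lay between 61.7 and 67.04, and a background level was still part of every intensity.

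**Figure D1:**
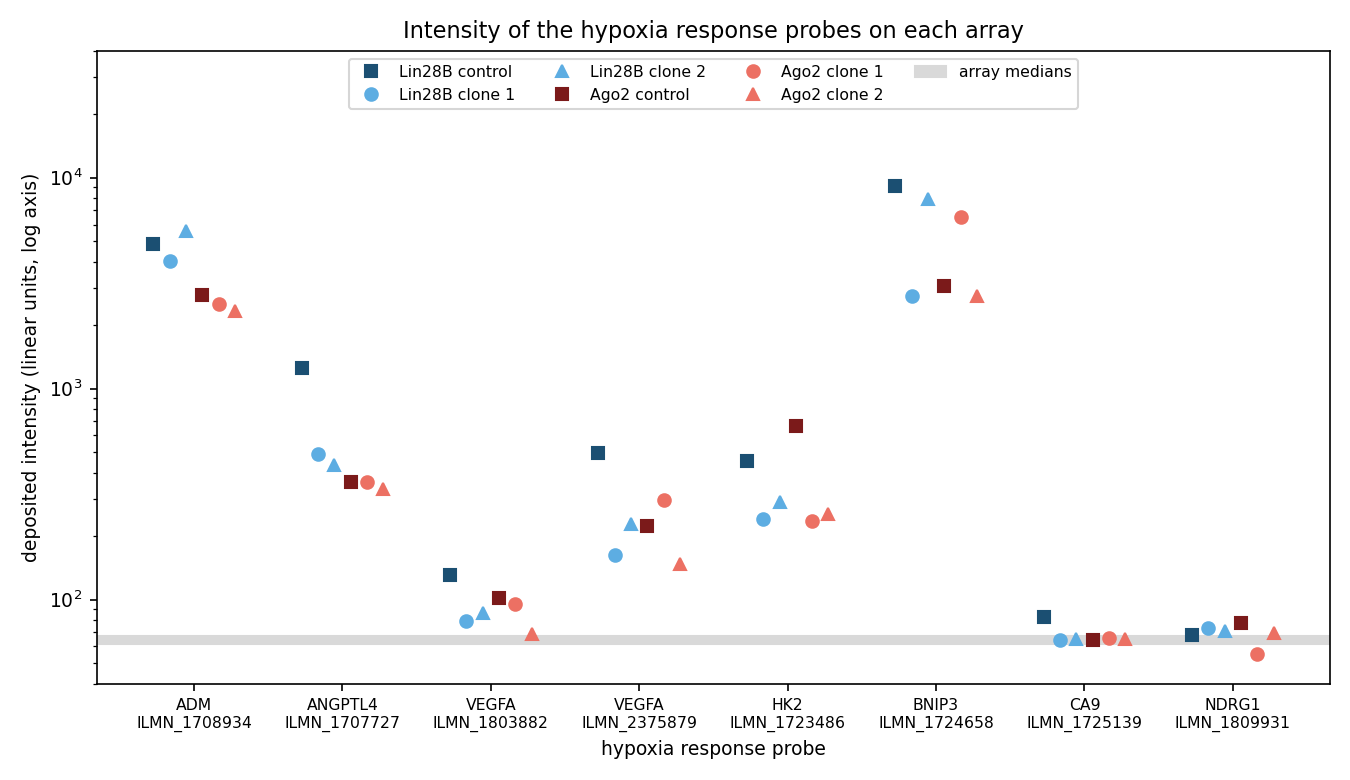
Deposited intensity of each hypoxia response probe on each of the 6 arrays, on a log axis, with controls as squares, clone 1 as circles and clone 2 as triangles, and the range of the array medians in grey. Heights can be compared within a probe but not between probes. ANGPTL4 stands out on the Lin28B control array, BNIP3 splits both pairs of sister clones, all 4 HK2 values of the clones lie below both controls, and CA9 and NDRG1 lie near the medians.

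Among the secreted factors, ANGPTL4 changed most between a control and its clones. ANGPTL4 (angiopoietin-like 4) inhibits lipoprotein lipase and is induced by hypoxia and by the fatty acid sensors of the PPAR family. Its intensity was 1259 on the Lin28B control array, 488 in Lin28B clone 1 and 437 in Lin28B clone 2. It was 362 on the Ago2 control array, 361 in Ago2 clone 1 and 333 in Ago2 clone 2. The Lin28B control was thus high and the other 5 arrays lay close together. The Lin28B clones, at 462 ± 36.0 (SD, n = 2), fell 2.94-fold from their control, a log2 change of -1.56 ± 0.12 (SE) with an adjusted p of 0.0488 in limma. The call lies at the threshold and was kept under 8 of 17 alternative settings. It was lost without either Lin28B clone, where 1 clone meets 1 control and the spread comes from the Ago2 pair alone. The log2 change was then -1.61 without clone 1 (limma adjusted p = 0.253) and -1.49 without clone 2 (limma adjusted p = 0.203). With the clone number as a block it was -1.50 (limma adjusted p = 0.166).

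The same probe separated the controls from each other, at a log2 difference of 1.84 ± 0.14 (SE, adjusted p = 0.0317 in limma), where 5.97% of all kept probes passed. That comparison sets 1 array against 1 array and takes its spread from the clones, and without either Lin28B clone the difference was 1.82 or 1.84 with an adjusted p of 0.107. Set against the Ago2 control array instead of their own, the Lin28B clones lay above it, with a log2 difference of 0.28 (limma adjusted p = 0.465). In the Ago2 clones, at 347 ± 20.1 (SD, n = 2), ANGPTL4 differed from the Ago2 control by -0.11 ± 0.12 (SE, adjusted p = 0.759 in limma). The 95% interval of that difference ran from -0.42 to 0.21. Compared directly, without a control array, the Lin28B clones lay 1.31-fold above the Ago2 clones, a log2 difference of 0.39 ± 0.10 (SE, adjusted p = 0.612 in limma), with a 95% interval from 0.14 to 0.64. Whether the Lin28B clones have less ANGPTL4 or their control line has more cannot be told apart with 1 array of that control. In bulk RNA such as this, fewer cells with the transcript and less of it per cell cannot be told apart either.

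ADM was brighter in all 3 lines of the Lin28B set than in the 3 lines of the Ago2 set. ADM encodes adrenomedullin, a secreted vasodilator peptide that is induced by HIF. Its intensity was 4851 on the Lin28B control array, 4012 in Lin28B clone 1 and 5600.1 in Lin28B clone 2. On the Ago2 side it was 2768 in the control, 2522 in clone 1 and 2337 in clone 2. All 3 arrays of the Lin28B set lay above all 3 of the Ago2 set. ADM and ANGPTL4 were the 2 probes of the 8 with this order, which 4.17% of all kept probes showed. The log2 difference between the Lin28B and Ago2 controls was 1.06 ± 0.30 (SE, adjusted p = 0.121 in limma). The Lin28B clones exceeded the Ago2 clones by 0.92 ± 0.21 (SE, adjusted p = 0.612 in limma), with a 95% interval from 0.36 to 1.48. No kept probe passed the test in that direct comparison of clones (0%), while 6.96% had an unadjusted p under 0.05. There limma with an intensity trend called 2 probes, neither of them among the 8 (ADM adjusted p = 0.601). Within each set the log2 change from the control was -0.29 ± 0.26 (SE, adjusted p = 0.630 in limma) for Lin28B and -0.14 ± 0.26 (SE, adjusted p = 0.859 in limma) for Ago2. Without Lin28B clone 1 the first of these became 0.0020.

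VEGFA encodes vascular endothelial growth factor A, the main secreted signal for new blood vessels, and was read by 2 probes that differ in brightness. The brighter probe, ILMN_2375879, measured 494 on the Lin28B control array, 163 in Lin28B clone 1 and 229 in Lin28B clone 2. It measured 222 on the Ago2 control array, 298 in Ago2 clone 1 and 148 in Ago2 clone 2. The Lin28B control was again the highest array, and the Ago2 control lay between the Ago2 clones. Both Lin28B clones were at least 2-fold below their control, as were 1.34% of all kept probes, with a log2 change of -1.27 ± 0.39 (SE) that did not pass the test (adjusted p = 0.184 in limma). It passed only where an Ago2 clone was left out, at a log2 change of -1.28 without clone 1 and -1.27 without clone 2. Many more of all kept probes passed in these settings too. Leaving out an Ago2 clone removes that pair of clones from the estimate of the spread. The size depended on the control array: it was -0.21 against the Ago2 control (limma adjusted p = 0.896) and -0.74 against both controls pooled.

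The dimmer VEGFA probe, ILMN_1803882, gave 131 on the Lin28B control array, 79.3 and 86.1 in Lin28B clones 1 and 2, 102 on the Ago2 control array, and 94.9 and 68.4 in Ago2 clones 1 and 2. It had the same highest and lowest arrays as the brighter probe. The probes disagreed on the Ago2 control, which lay above both Ago2 clones on the dim probe only. The log2 change of the dim probe in the Lin28B clones was -0.47 ± 0.17 (SE, adjusted p = 0.235 in limma). Its size depended on how background was treated, from -0.31 with an offset of 100 to -0.62 with none. In the Ago2 clones the changes were -0.13 ± 0.39 for the brighter probe and -0.28 ± 0.17 for the dimmer (SE, adjusted p = 0.918 and 0.547 in limma).

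HK2 was lower in all 4 clones than in either control. HK2 (hexokinase 2) phosphorylates glucose in the first step of glycolysis and is the hexokinase that many carcinomas and hypoxic cells raise. Its intensity was 457 on the Lin28B control array and 665 on the Ago2 control array. It was 241 in Lin28B clone 1 and 289.9 in Lin28B clone 2, and 236 in Ago2 clone 1 and 255 in Ago2 clone 2. The clones spanned 236 to 289.9, and the lower of the controls exceeded the highest clone by 0.65 on the log2 scale. HK2 and the dim VEGFA probe were the 2 of the 8 probes with all clones below both controls, an order found in 6.95% of all kept probes. For the dim VEGFA probe that gap was only 0.12. The brighter VEGFA probe lacked this order, as Ago2 clone 1 lay 0.30 above the Ago2 control.

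In the Ago2 set both clones lay at least 2-fold below their control for HK2, as they did for 0.599% of all kept probes. The log2 change there was -1.35 ± 0.14 (SE, 2.55-fold lower), with a 95% interval from -1.72 to -0.98, and it ranked 83rd of 28035 by p-value. It did not pass the test (adjusted p = 0.102 in limma). Over all probes the smallest adjusted p of that comparison was 0.0999, although 4239 probes (15.1%) had an unadjusted p under 0.05, and limma with an intensity trend called 161 probes, HK2 among them (adjusted p = 0.0483). In the Lin28B set the HK2 change was -0.76 ± 0.14 (SE, adjusted p = 0.0768 in limma), with a 95% interval from -1.13 to -0.39. It passed under 2 of 17 alternatives only, each with an Ago2 clone left out, which removes that pair from the estimate of the spread. The log2 change there stayed at -0.76, and many more of all kept probes passed there too. With the intensity trend the Lin28B change did not pass (adjusted p = 0.123 in limma). It was -0.65 without Lin28B clone 1 and -0.87 without Lin28B clone 2. Under the 17 alternatives the log2 changes of HK2 ran from -1.22 to -0.65 for Lin28B and from -1.46 to -0.89 for Ago2. Their shared sign is no separate evidence. As every clone lay below both controls, it could not turn with controls exchanged or pooled, and hardly with a clone left out. The filter, trend and robust settings leave the log2 change as it is. The difference between the 2 effects was 0.59 ± 0.20 (SE, adjusted p = 0.183 in limma). Clones of the 2 transfections differed by 0.13 ± 0.11 (SE, adjusted p = 0.925 in limma), with a 95% interval from -0.17 to 0.43.

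**Figure D2:**
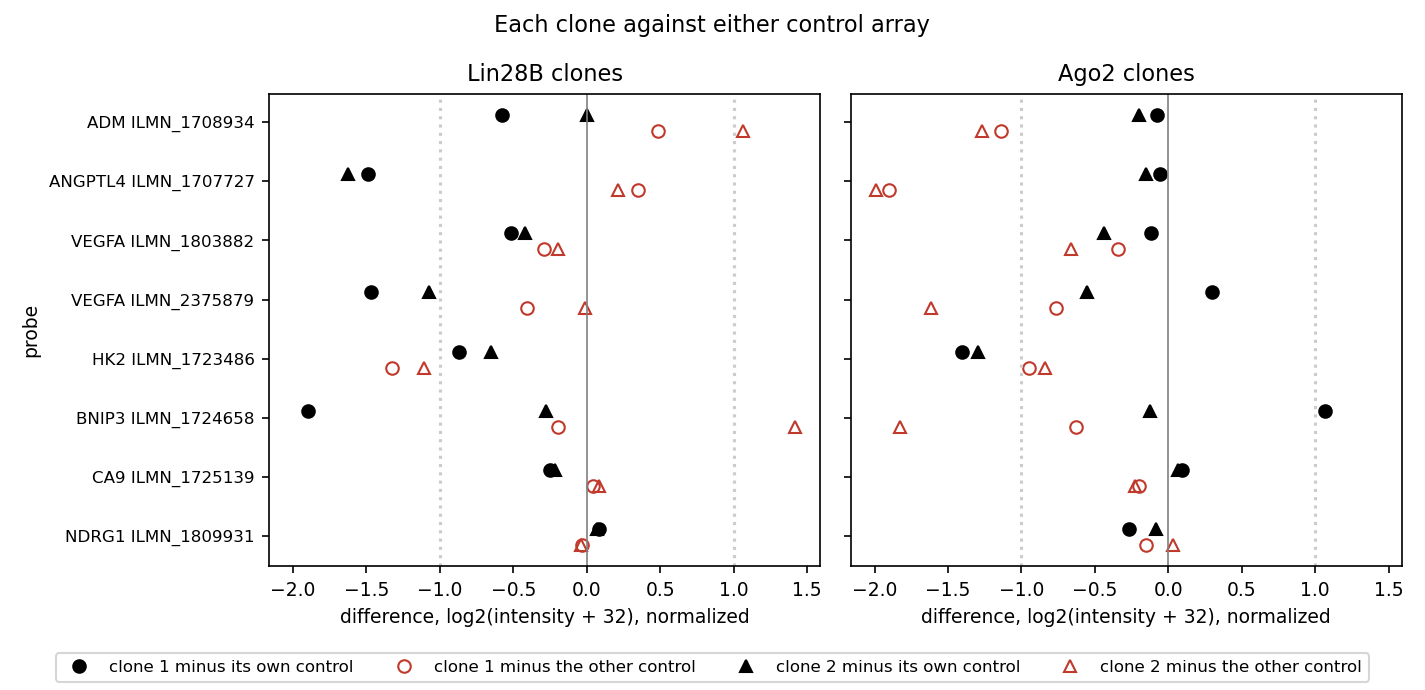
Log2 difference of each clone from its own control (black, filled) and from the control of the other transfection (red, open), for Lin28B clones on the left and Ago2 clones on the right, with dotted lines at 2-fold. HK2 lies to the left of 0 in all 4 clones against either control, whereas for ANGPTL4 both Lin28B clones move from the left of 0 to the right of it when the control is exchanged.

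BNIP3 varied most between sister clones. BNIP3 is a receptor on the outer mitochondrial membrane that directs mitochondria to autophagy, and it is a well-known HIF target. Its intensity was 9174 on the Lin28B control array, 2752 in Lin28B clone 1 and 7959 in Lin28B clone 2. It was 3081 on the Ago2 control array, 6486 in Ago2 clone 1 and 2754 in Ago2 clone 2. The Lin28B control, Lin28B clone 2 and Ago2 clone 1 were high and the others low, so each transfection had 1 clone on either side. Lin28B clone 2 exceeded clone 1 by 3.07-fold, a log2 difference of 1.62, and 14 of 28035 kept probes (0.0499%) differed as much between these clones. Ago2 clone 1 exceeded clone 2 by 2.29-fold, a log2 difference of 1.20 in size, which 179 kept probes (0.638%) reached. The median size of such differences over all kept probes was 0.108 for Lin28B and 0.123 for Ago2.

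Neither transfection changed BNIP3 past the threshold, and the intervals were wide. The log2 change was -1.09 ± 0.82 (SE, adjusted p = 0.562 in limma) for Lin28B, with a 95% interval from -3.27 to 1.10. It was 0.47 ± 0.82 (SE, adjusted p = 0.849 in limma) for Ago2, with a 95% interval from -1.71 to 2.66. Against its own control Lin28B clone 1 differed by -1.90 and clone 2 by -0.28, while Ago2 clone 1 differed by 1.07 and clone 2 by -0.13. Without Ago2 clone 1 the Ago2 change was -0.13, and with the controls exchanged it was -1.23. The controls themselves differed 3.24-fold, a log2 difference of 1.70 ± 0.95 (SE, adjusted p = 0.371 in limma).

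The order of the sister clones was shared by some of the other probes. BNIP3, ADM, CA9 and both VEGFA probes were higher in Lin28B clone 2 than in clone 1 and higher in Ago2 clone 1 than in clone 2. These are 5 of the 8, with VEGFA counted by both of its probes, and 25.9% of all kept probes had this order. BNIP3 was the one member at least 2-fold apart in both pairs, as were 19 of all kept probes (0.0678%). For the brighter VEGFA probe the sizes were 0.39 for the Lin28B pair and 0.85 for the Ago2 pair, which 6.61% and 2.05% of kept probes reached. For ADM they were 0.58 (1.90% of kept probes) and 0.13 (49.1%). As clone 2 minus clone 1, the dim VEGFA probe differed by 0.095 (54.7%) in the Lin28B pair and -0.32 (17.6%) in the Ago2 pair. CA9, near the array medians, differed by only 0.038 (80.9%) and -0.030 (86.5%). NDRG1 had the opposite order in both pairs, by 0.18 between the Ago2 clones and 0.013 between the Lin28B clones in size. HK2 was higher in Ago2 clone 2 than in clone 1, by 0.11, and ANGPTL4 was higher in clone 1 than in clone 2 of both transfections, by 0.14 and 0.092. This shared order was noticed in the data, and no test was made of it. The labels do not say how the cultures of sister clones compared in oxygen or density, and a part of either in these differences was not tested.

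**Figure D3:**
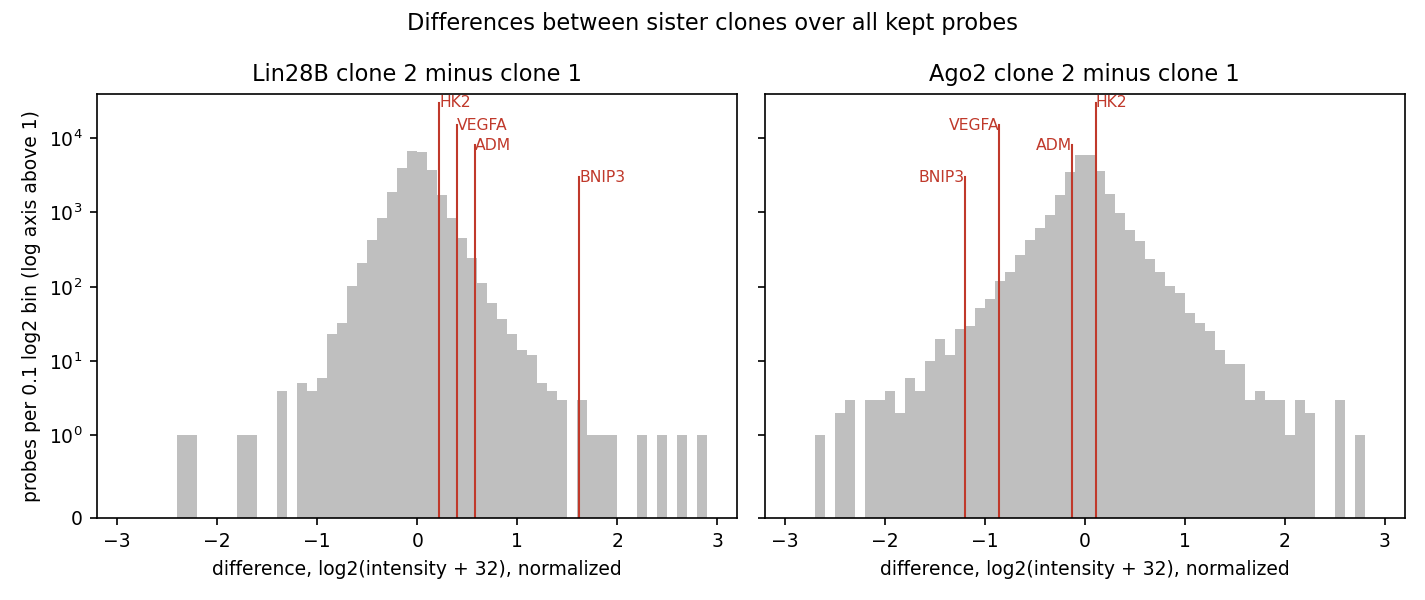
Distribution over all 28035 kept probes of the log2 difference between sister clones, Lin28B on the left and Ago2 on the right, as the number of probes per bin on an axis that is logarithmic above 1. Red lines mark BNIP3, ADM, the brighter VEGFA probe and HK2: BNIP3 lies in the far tail of both panels, at 1.62 and -1.20, and on opposite sides.

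CA9 and NDRG1 stayed near background. CA9 (carbonic anhydrase 9) is a membrane enzyme that helps hypoxic cells export acid and is widely used as a marker of tumour hypoxia. Its intensity was 83.2 on the Lin28B control array and between 64.2 and 65.5 on the other 5 arrays. On the Lin28B control array it exceeded 69.0% of all probes, and on the others between 41.2% and 57.4%. NDRG1, a stress-induced protein that restrains growth and spread in several carcinomas, measured 68.2 on the Lin28B control array, 73.3 and 71.0 in Lin28B clones 1 and 2, 77.1 on the Ago2 control array, and 55.0 and 69.1 in Ago2 clones 1 and 2. It exceeded between 25.5% and 65.7% of all probes. Detection calls were not analysed here. Signals this close to the array medians of 61.7 to 67.04 carry little information on the transcripts, and the log2 changes, between -0.23 and 0.081 for CA9 and between -0.17 and 0.077 for NDRG1, did not pass the test (lowest adjusted p = 0.305 in limma).

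The controls differed from each other on several of these genes. Between them 4 of the 8 probes (ANGPTL4, BNIP3, ADM and the brighter VEGFA probe) were at least 2-fold higher in the Lin28B control, as were 4.51% of all kept probes, and none was at least 2-fold lower, against 3.70%. The count was 3 with an offset of 100, where the brighter VEGFA probe differed by 0.90. It was also 3 without normalization and with arrays shifted to a common median, where ADM differed by 0.80 and 0.84. Over all kept probes 1613, 2306 and 2284 were then at least 2-fold apart in either direction, against 2303 as reported. In the reported setting the median log2 difference was 0.68 over the 8 probes and -0.025 over all kept probes.  The comparison of each transfection with its control, the comparison of the effects and the comparison of the controls share these 2 arrays and are not independent. For the difference between the effects of both transfections, 1 of the 8 probes passed the test in limma, ANGPTL4, where 3.81% of all kept probes did.

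**Figure D4:**
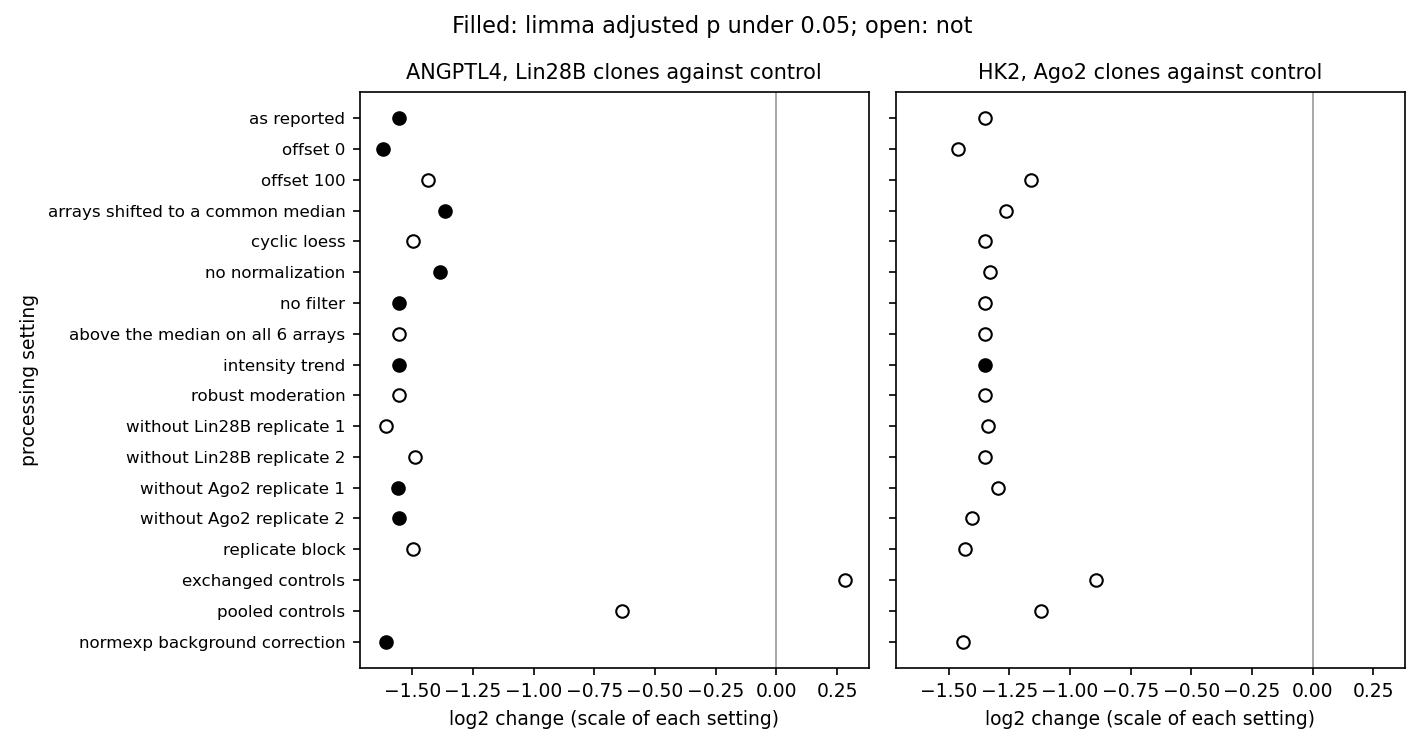
Log2 change under each processing setting for ANGPTL4 in the Lin28B clones (left) and HK2 in the Ago2 clones (right), filled where the limma adjusted p was under 0.05. ANGPTL4 reaches 0.28 with the controls exchanged, and HK2 stays between -1.46 and -0.89.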

How the data were processed

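Total RNA was extracted with Trizol, and biotinylated cRNA was made with the Ambion MessageAmp kit, per the labels' protocols. The deposited table holds intensities on a linear scale, 1 per probe and array. How the authors scanned, corrected and normalized them is not given in the sources used here. There is no read depth, and the small number of arrays limits the precision.

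After a floor of 1, log2(intensity + 32) was computed and quantile normalized in limma 3.58.1 under R 4.3.3. Probes above the array median on at least 2 of 6 arrays were kept (28035 of 48803, 57.4%). One linear model with 4 groups held all 6 arrays (2 residual degrees of freedom, from the clone pairs, plus 2.54 prior ones around a prior SD of 0.105), with empirical Bayes moderation and Benjamini-Hochberg adjustment over the kept probes. The 5 contrasts were each transfection against its control, the difference of these effects, clones against clones and control against control. A size rule without a test asked for at least 2-fold in both clones. The p-values rest on the spread between sister clones, which includes differences between clones, and on no spread of a control line. No label says whether the arrays came from separate cultures or batches, so a part of either was not tested.

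Members and gene lists were chosen with earlier results of these data known. All members were named, and for the lists the rule was every gene past the threshold. Without gene names for other probes the lists, markers, pattern likeness and averaging of probes were not analysed here. Alternatives covered offset, normalization, filter, moderation, controls, each clone left out, the clone number as a block and, chosen after seeing the data, normexp with an offset of 50. RefSeq promoters of build GRCh38.p14 were searched for ACGTG and GCGTG on both strands.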

Additional observations from a re-analysis of the deposited data

Results flagged for a closer look

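For ANGPTL4 (ILMN_1707727) the Lin28B effect was lower than the Ago2 effect by a tested difference of -1.45 ± 0.17 on the log2 scale (SE, adjusted p = 0.0428 in limma). Both Lin28B clones lay below their control, by -1.49 and -1.62, and both Ago2 clones close to theirs, by -0.059 and -0.15. The difference equals the direct difference between the clones, 0.39, minus the gap of 1.84 between the control arrays, and with the controls exchanged it was 2.23.

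CA9 (ILMN_1725139) was lower in both Lin28B clones than in their control and higher in both Ago2 clones than in theirs, a difference of -0.31 on the log2 scale (adjusted p = 0.291 in limma). NDRG1 (ILMN_1809931) had the opposite signs, a difference of 0.25 (adjusted p = 0.491 in limma). Neither difference passed the test, and both probes lay near the array medians.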

How the results depend on the processing

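Of 630 values of single probes under alternatives, 575 kept their direction and side of the threshold, 15 lost the call, 8 gained it and 32 changed sign. This tally does not measure size. With a clone left out, BNIP3 for Lin28B ran from -1.91 to -0.28 and still counted among the 575. Nor can the filter, trend and robust settings alter a log2 change, so part of the 575 was fixed in advance. An offset of 0 gave 813 calls for Lin28B against its control, the intensity trend 721 and normexp 736, against 463 as reported. With an offset of 100 no probe passed for Lin28B (0 calls, 0 of the 8) or for the difference of effects (0, 0 of the 8, against 1067 as reported), and 1003 passed between the controls, against 1674. That offset left 457 probes at least 2-fold changed for Lin28B (1 of the 8, against 716 and 2) and 218 for Ago2 (against 347). With arrays shifted to a common median, 1 of the 8 was at least 2-fold changed for Lin28B, and 724 of all kept probes. Cyclic loess and robust moderation each left 1 call for Lin28B and the stricter filter 0, with 0 of the 8 in each. The trend called 161 probes for Ago2 (1 of the 8) and 2 between clones (0 of the 8), against 0 in both. Exchanged controls gave 0 calls for Lin28B and for the difference, 0 of the 8 in both. With them 255 probes were at least 2-fold changed for Lin28B (1 of the 8). For Ago2 it was 2 of the 8, against 1 as reported, a count not set here against all kept probes. Pooled controls gave 0 calls for Lin28B (0 of the 8), 53 probes at least 2-fold changed for Lin28B (0 of the 8) and 36 for Ago2.

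The replicate block, with the clone number as a term, gave 0 calls, and 0 of the 8, for Lin28B, for the difference and between the controls, and leaves 1 residual degree of freedom. Clone numbers do not pair the samples by any label, and same-numbered clones deviated apart (r = -0.204 over kept probes). Leaving out 1 clone at a time gave 0 to 2497 calls for Lin28B (0 to 3 of the 8), 0 to 64 for Ago2, 0 to 2876 for the difference (0 to 2 of the 8) and 0 to 4125 between the controls (0 to 2 of the 8). The lowest counts for Lin28B, the difference and the controls came without either Lin28B clone, the 64 without Ago2 clone 2. The size rule needs both clones and was not run there.

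Signs that turned with exchanged controls were, for Lin28B, ADM 0.78, ANGPTL4 0.28, BNIP3 0.61, CA9 0.062 and NDRG1 -0.035, for Ago2, BNIP3 -1.23 and CA9 -0.21, and for the difference, ADM 1.98, ANGPTL4 2.23, BNIP3 1.84, CA9 0.28, HK2 -0.32 and VEGFA 0.26 (dim probe) and 0.98 (bright probe). With pooled controls they were ADM 0.25 for Lin28B, and BNIP3 -0.38 and CA9 -0.066 for Ago2. With a common median they were, for Ago2, ANGPTL4 0.010 and bright VEGFA 0.0047, and ADM 0.11 for the difference, which was 0.15 without normalization. Leaving out a clone moved ADM between -0.57 and 0.0020 for Lin28B and between -0.44 and 0.14 for the difference, and for Ago2 BNIP3 between -0.13 and 1.07 and bright VEGFA between -0.55 and 0.30. Between clones it moved BNIP3 between -0.67 and 0.95, dim VEGFA between -0.13 and 0.19, bright VEGFA between -0.51 and 0.34 and CA9 between -0.037 and 8.6e-05. The cause of these changes was not tested. With 1 array per control and 2 clones, changes of dim probes and of BNIP3 are poorly limited by these data.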
